A study of Mus musculus with 1505 samples.

Results

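L2/3 IT_3 is a transcriptomic type (t-type) of excitatory neurons in the upper layers of mouse primary motor cortex. The study labelled 86 cells with exactly this t-type, out of 1505 cells in all, and these 86 count columns were selected here by that label alone. They were set beside the 167 other cells recorded at the same temperature whose t-type belongs to the intratelencephalic (IT) family, called other IT cells below. Each cell was recorded in an acute slice of adult mouse primary motor cortex with a patch pipette at 25 °C, and its RNA was then aspirated and amplified with Smart-seq2, a method that counts reads without molecular identifiers (Patch-seq). The mice were male and female, either wild-type C57Bl/6 or carriers of one of several Cre driver alleles with a fluorescent reporter, most of which mark interneurons, and the labels do not say which animal or line gave which cell. No L2/3 IT_3 cell was recorded at the higher temperature of the follow-up experiment, where the study placed 185 of the cells.

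The other IT cells carried the labels L4/5 IT_1 (22 cells), L4/5 IT_2 (32), L5 IT_1 (61), L5 IT_2 (7), L5 IT_3 (5), L5 IT_4 (4), L6 IT_1 (10), L6 IT_2 (25) and L2/3 IT_2 (1). Of these, 3 t-types served as single references: L5 IT_1, which has the most cells, and L4/5 IT_1 and L4/5 IT_2 from the neighbouring layers. T-types had been assigned by the authors from the same RNA, by correlation with reference cells. The levels of type-specific genes are therefore not independent of the label, and all differences between t-types are given as descriptions. Because no animal is named, each group of cells counted as 1 sample, and no test across animals was run.

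Some columns held the same library. Among the 341 columns read here, 7 pairs correlated at r = 0.972 to 0.982 over log2(CPM + 1), whereas no other pair exceeded 0.873. Their counts differed by 0.998 to 1.08 times what counting noise gives (chi-square per gene), against at least 39.5 times in 14 other well-correlated pairs. L2/3 IT_3 held 3 of these pairs, L4/5 IT_2 held 2, and 1 further pair carried the label L5 IT_1 in one column and L5 IT_3 in the other. The columns of a pair were summed and counted once, which left 83 libraries of L2/3 IT_3 and 164 of other IT cells, and the pair with conflicting labels was kept among the other IT cells only. Levels of a group are sums over its columns, so this merging changed the number of libraries and not the summed levels of these groups.

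The libraries of L2/3 IT_3 held 136933 to 5892036 exonic counts (median 1006533), and those of other IT cells held 34283 to 18172944 (median 1268356). The recordings of IT cells spanned 3 calendar years, counted here as the first, the second and the third. Of the L2/3 IT_3 libraries, 70 were recorded in the second year and 13 in the third, against 8 libraries of other IT cells in the first, 81 in the second and 75 in the third. The recording year was thus unevenly spread between the groups, and fold changes within the second and within the third year are given beside the main ones. Both groups were recorded on 20 shared days, with 29 libraries each. Exonic counts were summed over the libraries of a group and scaled to their total without spike-ins (CPM). Fold changes are log2 ratios of L2/3 IT_3 over the reference after 1 CPM was added to both, which understates the change of low genes. A gene was taken as measured at 10 CPM or more in the higher group, and as past the fold at a log2 fold change of 1 or more in size. Where a gene reached 10 CPM in a single group, that limit fixed the sign of its fold change, which holds for all lists below.

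IT neurons are glutamatergic pyramidal cells that send axons within the telencephalon, to other cortical areas of both hemispheres and to the striatum. Those of layer 2/3 lie just below the cell-poor layer 1 and carry much of the traffic between cortical areas. The homeodomain transcription factors Cux1 and Cux2 are known to mark the upper layers, whereas Fezf2 and Bcl11b are known for the deep layers, and Rorb for layer 4.

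The markers of the label were present. Cux2 was at 249 CPM in L2/3 IT_3, against 35.9 CPM in other IT cells. Over libraries it spanned 0 to 3449 CPM with a median of 220.0 in L2/3 IT_3, and 0 to 531 CPM with a median of 0 in other IT cells. The ranges overlapped, since 5 L2/3 IT_3 libraries lacked a Cux2 read and the highest other IT libraries exceeded the L2/3 IT_3 median. After thinning of every library to 200000 exonic counts, 92.3% of 78 L2/3 IT_3 libraries had a Cux2 read (exact 95% interval 84.01 to 97.1%), against 32.3% of 158 other IT libraries. The log2 fold change was 2.76, with 3.74 in the second year and 1.99 in the third year, and Cux2 was higher in L2/3 IT_3 on 18 of the 20 shared days and lower on 2. Intervals for shares of libraries, here and below, treat the libraries as independent, although they share days and may share animals, and other intervals cover counting error only.

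Cux2 was lower in the deeper labels. It was at 157 CPM in L4/5 IT_1, at 54.7 in L4/5 IT_2, at 16.1 in L5 IT_1, at 5.20 in L6 IT_1 and at 0.0678 in L6 IT_2. It is no marker of excitatory cells alone, since the GABAergic Pvalb Il1rapl2 cells, read as an outside comparison, held 152 CPM. Slc17a7, which encodes the vesicular glutamate transporter of most cortical pyramidal cells, was at 463 CPM in L2/3 IT_3, against 553 CPM in other IT cells. It had a read in 81 of the 83 libraries, from 0 to 1869 CPM with a median of 356, and was at 1.43 CPM in Pvalb Il1rapl2 cells. Both markers of the label were thus present in most libraries.

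**Figure D1:**
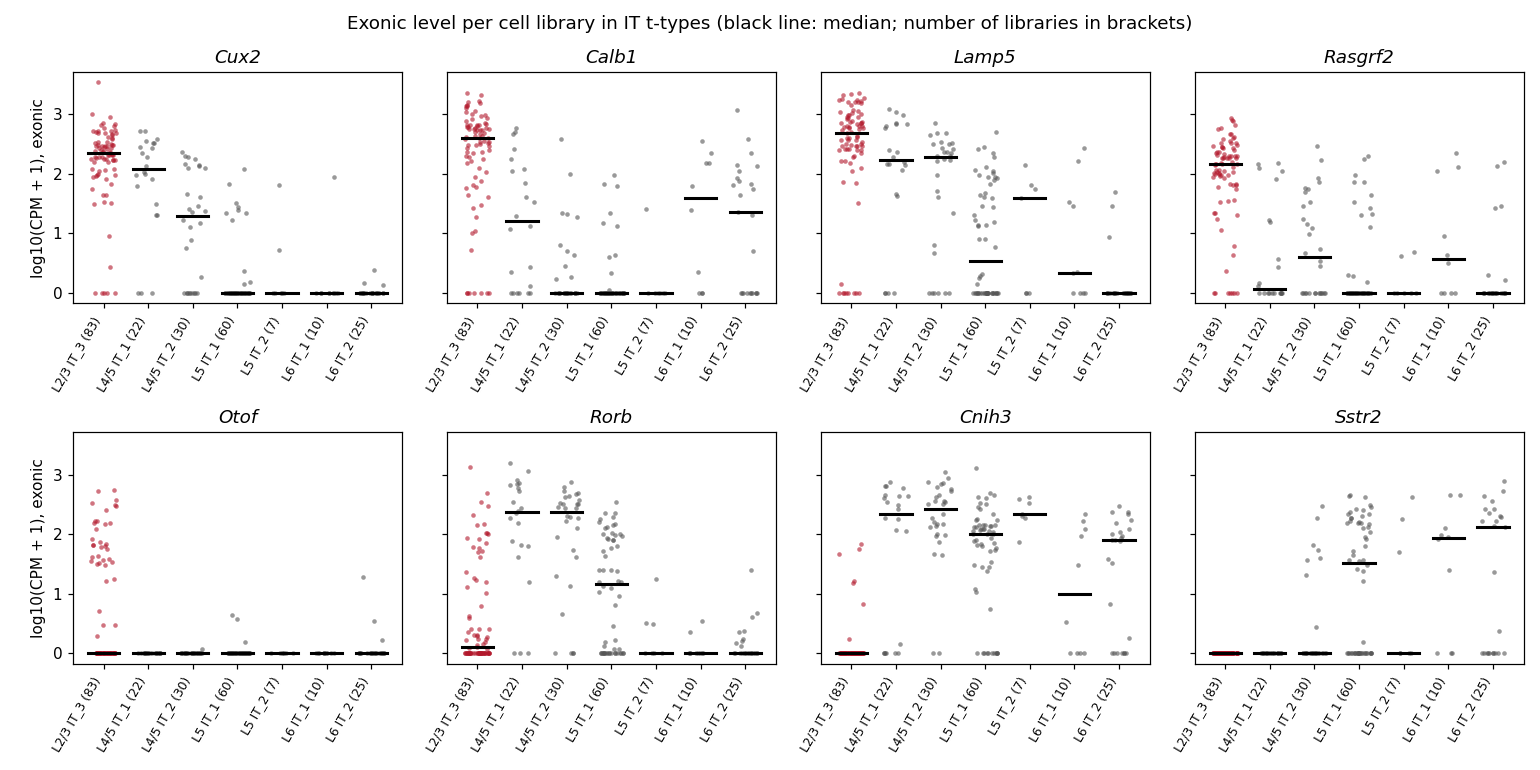
Level of 8 genes in each library, as log10(CPM + 1) of exonic counts, for L2/3 IT_3 and the 6 other IT t-types with at least 5 libraries. Each point is a library, the black line is the median, and the number of libraries is in brackets. The median of L2/3 IT_3 is the highest of the 7 t-types for Cux2, Calb1, Lamp5 and Rasgrf2, while no L2/3 IT_3 library has a read of Sstr2.

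Markers of GABAergic cells, Lamp5 aside, were low in sum, whereas those of microglia, astrocytes and oligodendrocytes were not. All were unevenly spread over libraries. The GABAergic markers other than Lamp5, which pyramidal cells of the upper layers also express, summed to 52.9 CPM in L2/3 IT_3 and 74.7 CPM in other IT cells, against 5044 CPM in Pvalb Il1rapl2 cells. They reached 1232 CPM in a single L2/3 IT_3 library, and Gad2 was at 0.588 CPM in L2/3 IT_3, against 4.11 CPM in other IT cells, an order that turned in the second year (log2 fold change 0.13) and in intronic counts (0.13). The 8 microglial markers summed to 1140.0 CPM in L2/3 IT_3 (0 to 13251 over libraries) and to 864 CPM in other IT cells (0 to 11497), and none of them was past the fold. Their library medians lay further apart, at 442 CPM in L2/3 IT_3 and 207 CPM in other IT cells, and the median log2 fold change of the list was -0.18 in the second year and 0.92 in the third year. The 8 astrocyte markers summed to 866 and 783 CPM, and the 7 oligodendrocyte markers to 403 and 855 CPM in the same order. Of the astrocyte markers, Gja1 was higher past the fold, at 16.5 CPM in L2/3 IT_3, against 5.37 CPM in other IT cells, with log2 fold changes of -0.05 in the second year, 2.95 in the third year and -0.14 in intronic counts. Of the oligodendrocyte markers, Mbp (log2 fold change -1.79) and Mobp (-1.19) were lower past the fold. The markers of oligodendrocyte precursors and of endothelial and mural cells summed to under 20 CPM in both groups. The part that RNA of these cells has in the differences below was not tested.

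Across the transcriptome, 614 of 11140 measured genes (5.51%) were higher in L2/3 IT_3 than in other IT cells past the fold, and 636 (5.71%) were lower. Beyond a 4-fold change lay 127 higher and 160 lower genes, and beyond 8-fold 30 higher and 51 lower genes. Of the genes past the fold, 509 of the 614 higher and 583 of the 636 lower kept their sign within both the second and the third year. In intronic counts, 138 of the 614 and 185 of the 636 were past the fold in the same direction. The count rests in part on genes near the limit, since 534 genes had a log2 fold change of 0.9 to 1.1 in size.

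The 12 genes with the largest positive fold changes were taken among genes with at least 50 CPM and a read in at least 30% of the L2/3 IT_3 libraries, and with the same sign in both years. In order of size they were Otof, Plk5, Col11a1, Calb1, Evc2, Gsg1l, Stard8, Dpy19l3, Ankrd6, Rasgrf2, Tmem215 and Reln, with log2 fold changes of 5.08 to 3.00. Otof encodes otoferlin, a calcium sensor of vesicle release best known from cochlear hair cells, and lies on chromosome 5 (30367062 to 30461932 in the mm10 assembly). It was at 51.5 CPM in L2/3 IT_3, against 0.551 CPM in other IT cells. Its reads came from 36 of the 83 L2/3 IT_3 libraries, so that the median library was at 0 and the highest at 562 CPM, while 10 of the 164 other IT libraries had a read, with a highest value of 133 CPM. Otof reads were thus absent from more L2/3 IT_3 libraries than they were present in. Summed over a t-type, Otof was above 1 CPM elsewhere only in L5 IT_4 (23.5 CPM over 4 libraries) and the lone L2/3 IT_2 cell (2.87 CPM). In L5 IT_4 all reads came from 1 library, at 133 CPM. Single libraries of other t-types also passed 1 CPM, such as an L6 IT_2 library at 18.02 CPM.

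Calb1, which encodes the calcium buffer calbindin, was the most abundant gene of the 12. It lies on chromosome 4 (15881264 to 15908064) and was at 545 CPM in L2/3 IT_3, against 35.2 CPM in other IT cells. Its library values ran from 0 over a median of 395 to 2328 CPM in L2/3 IT_3, and from 0 over a median of 0 to 1175 CPM in other IT cells. The log2 fold change was 6.15 in the second year and 2.22 in the third year, and all L6 libraries, in which Calb1 reached 103 CPM (L6 IT_1) and 86.6 CPM (L6 IT_2), were recorded in the third year. It was at 110.1 CPM in L4/5 IT_1, and at 7.13 and 5.28 CPM in L4/5 IT_2 and L5 IT_1.

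Rasgrf2, an exchange factor for Ras and Rac that is used to label layer 2/3 cells in Cre lines, was at 179.5 CPM in L2/3 IT_3, against 17.5 CPM in other IT cells, and spanned 0 to 859 CPM (median 146) against 0 to 295 CPM (median 0). It was among the most even of the 12, with log2 fold changes of 3.15 in the second year and 3.36 in the third year, and was higher on 18 of the 20 shared days. Col11a1, a fibrillar collagen chain, was at 55.7 CPM in L2/3 IT_3, against 2.48 CPM in other IT cells, although the 4 libraries of L5 IT_4 held 78.7 CPM. Reln, which encodes the secreted glycoprotein reelin, was at 56.1 CPM, against 6.16 CPM in other IT cells, of which L5 IT_2 alone held 95.2 CPM. Plk5, a member of the polo-like kinase family, was at 61.03 CPM, against 2.69 CPM in other IT cells, with 39.9 CPM in L5 IT_2. These 3 genes therefore recurred in small L5 t-types, and their fold changes depend on how much weight those t-types receive.

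Stard8, a RhoGAP on the X chromosome, was at 108 CPM in L2/3 IT_3, against 8.90 CPM in other IT cells, and was higher on 18 of the 20 shared days. Gsg1l, an auxiliary subunit of AMPA receptors, was at 63.9 CPM, against 4.71 CPM in other IT cells. Evc2, a component of the base of the primary cilium in Hedgehog signalling, was at 62.5 CPM, against 4.12 CPM in other IT cells, and was higher on 14 shared days and lower on 0. Dpy19l3, a C-mannosyltransferase, and Ankrd6, an ankyrin-repeat protein of Wnt signalling, had log2 fold changes of 3.45 and 3.40. Tmem215 had a fold change of 3.01, with 3.77 in the second year and 0.94 in the third year.

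The 12 genes with the largest negative fold changes, chosen by the same rule with the reads required in other IT cells, were Sstr2, Deptor, Cnih3, Hs3st2, Sema3e, Trbc2, Kcnab1, Myl4, Galnt14, Fezf2, Tox and Rspo2. Sstr2, which encodes an inhibitory receptor for somatostatin, lies on chromosome 11 (113619342 to 113626028). It had no exonic read in any of the 83 L2/3 IT_3 libraries, against 91.8 CPM in other IT cells, where 74 of 164 libraries had a read and the highest reached 777 CPM. Set against a floor of 3 counts over the L2/3 IT_3 group it was 3127-fold lower. That ratio takes reads as independent and is no lower bound over libraries. Among thinned libraries, 0 of 78 with a read allows a share of libraries with a read of up to 4.62% (exact 95% interval, libraries taken as independent). Sstr2 was likewise at 0 in the 22 libraries of L4/5 IT_1 and in the L2/3 IT_2 cell, and stood at 34.9 CPM in L4/5 IT_2, 109.8 in L5 IT_1 and 174 in L6 IT_2. Of the 4 labels of layers 2/3 and 4/5, only L4/5 IT_2 thus held Sstr2 reads.

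Cnih3 encodes an auxiliary subunit of AMPA receptors and lies on chromosome 1 (181352628 to 181460641). It was at 2.72 CPM in L2/3 IT_3, against 167 CPM in other IT cells. Of the L2/3 IT_3 libraries 7 had a read, and the highest was at 67.6 CPM, below the median of other IT cells at 111 CPM. On 18 of the 20 shared days Cnih3 was lower in L2/3 IT_3, and on none was it higher. Unlike Sstr2 it was high in L4/5 IT_1, with 285 CPM.

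Deptor, an inhibitor of mTOR signalling, was at 0.636 CPM in L2/3 IT_3, against 113 CPM in other IT cells, and 91.9% of the summed L2/3 IT_3 CPM came from 1 of its 3 libraries with a read. Hs3st2, a heparan sulfate sulfotransferase, was at 2.96 CPM in L2/3 IT_3, against 138 CPM in other IT cells, and had 67.4 CPM or more in every other IT t-type with at least 5 libraries. Kcnab1, a beta subunit of Kv1 potassium channels, was at 5.27 CPM, against 132 CPM in other IT cells. Deptor was near 0 in L6 IT_1 (0.0743 CPM) but not in L4/5 IT_1 (65.2 CPM). Fezf2, a transcription factor of subcortically projecting neurons, was at 3.31 CPM in L2/3 IT_3, against 63.6 CPM in other IT cells, but at 0.168 CPM in L4/5 IT_1. Rspo2 and Sema3e, secreted ligands of Wnt and plexin signalling, were likewise low in L4/5 IT_1, with 0 and 1.09 CPM. The log2 fold change of Rspo2 was -3.76 on all days and -0.96 on the shared days.

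Trbc2, a constant segment of the T cell receptor beta locus, was at 3.91 CPM in L2/3 IT_3, against 113 CPM in other IT cells, and is annotated among gene segments of near-identical sequence, so that its reads may have been split with the copy beside it. Myl4, a myosin light chain, and Tox, a nuclear HMG-box protein, had log2 fold changes of -4.26 and -3.89. Galnt14, a GalNAc transferase, was at 3.81 CPM, all from 1 library, against 85.6 CPM in other IT cells, and its fold change was -1.60 in the second year and -6.99 in the third year. Without that library Galnt14 would be at 0 in L2/3 IT_3.

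**Figure D2:**
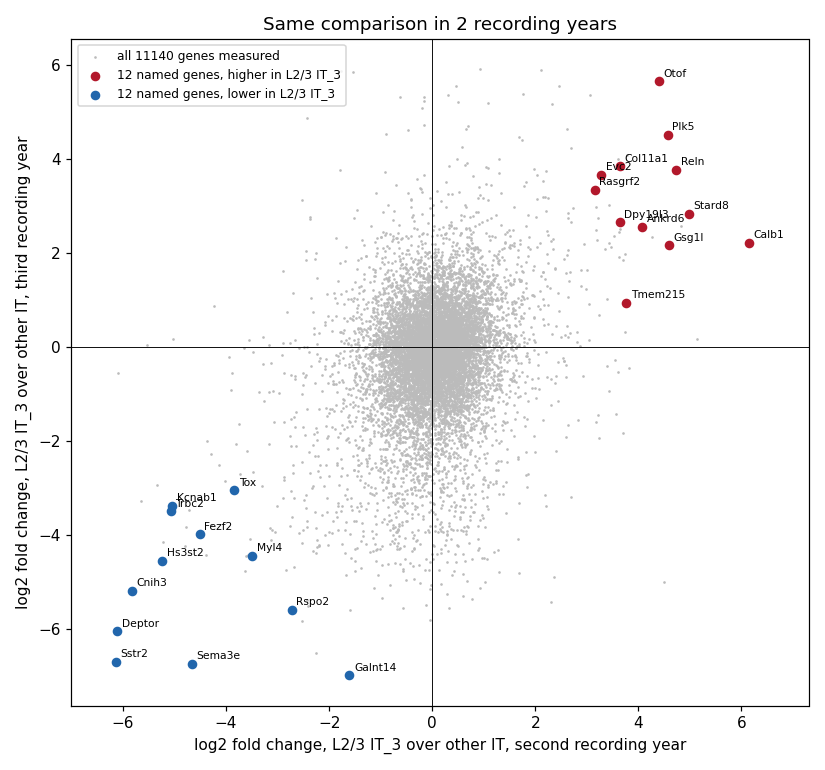
Log2 fold change of L2/3 IT_3 over other IT cells among libraries recorded in the second year (x axis) and in the third year (y axis), for the 11140 measured genes (grey), the 12 named higher genes (red) and the 12 named lower genes (blue). The named genes were required to keep their sign, and they lie in the upper right and the lower left of the plot, from Calb1 at 6.15 and 2.22 to Galnt14 at -1.60 and -6.99.

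The promoters of these 24 genes were searched for 3 motifs, and the few printed here show where the matched letters lie. RefSeq promoters, from 250 bases before to 50 bases after the start of the transcript, were matched for 9 of the 12 higher and 8 of the 12 lower genes (GRCm38.p6). The letters TGACGTCA, the cAMP response element, CACGTG, an E-box, and CAGATG, an E-box that Neurod proteins are known to bind, were searched on both strands. TGACGTCA occurred in 0 of the 9 higher and 2 of the 8 lower genes (Hs3st2 and Sstr2), and in 588 of all 32851 promoters (1.79%) or 549 of all 27025 genes with a promoter (2.03%), since a gene can have several promoters. CACGTG occurred in 2 of the 9 higher (Rasgrf2 and Reln) and 3 of the 8 lower genes (Cnih3, Kcnab1 and Sema3e), and in 2349 of all promoters (7.15%) or 2187 of all genes (8.09%). CAGATG occurred in 3 of the 9 higher (Ankrd6, Evc2 and Tmem215) and 0 of the 8 lower genes, and in 5635 of all promoters (17.2%) or 5196 of all genes (19.2%). A match is a description of these letters and no evidence of binding. Below are 2 promoters of higher genes and 2 of lower genes that hold 1 match each, with the match in capitals. They are Rasgrf2 (chromosome 13, 92131779 to 92132078, minus strand, match from position -47), Evc2 (chromosome 5, 37338228 to 37338527, plus strand, from -55), Sstr2 (chromosome 11, 113619077 to 113619376, plus strand, from -58) and Hs3st2 (chromosome 7, 121392046 to 121392345, plus strand, from -69), with position 0 at the start of the transcript.
Rasgrf2: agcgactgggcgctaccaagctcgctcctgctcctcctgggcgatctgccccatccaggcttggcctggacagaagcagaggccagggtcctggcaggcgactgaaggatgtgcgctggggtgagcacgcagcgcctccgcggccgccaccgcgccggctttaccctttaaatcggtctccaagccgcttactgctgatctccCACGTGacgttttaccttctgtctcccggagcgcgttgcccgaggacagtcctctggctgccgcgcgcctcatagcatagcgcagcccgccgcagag
Evc2: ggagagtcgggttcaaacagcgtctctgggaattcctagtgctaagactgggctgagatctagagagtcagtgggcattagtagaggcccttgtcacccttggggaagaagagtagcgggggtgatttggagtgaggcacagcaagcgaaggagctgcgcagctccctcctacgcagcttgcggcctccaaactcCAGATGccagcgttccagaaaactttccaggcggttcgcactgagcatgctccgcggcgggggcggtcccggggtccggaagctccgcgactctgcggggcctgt
Sstr2: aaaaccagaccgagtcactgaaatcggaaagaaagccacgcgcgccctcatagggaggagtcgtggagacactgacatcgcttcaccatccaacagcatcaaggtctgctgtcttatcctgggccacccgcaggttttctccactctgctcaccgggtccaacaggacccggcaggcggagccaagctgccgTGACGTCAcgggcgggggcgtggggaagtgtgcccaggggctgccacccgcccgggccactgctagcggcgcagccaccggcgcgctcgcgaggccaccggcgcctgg
Hs3st2: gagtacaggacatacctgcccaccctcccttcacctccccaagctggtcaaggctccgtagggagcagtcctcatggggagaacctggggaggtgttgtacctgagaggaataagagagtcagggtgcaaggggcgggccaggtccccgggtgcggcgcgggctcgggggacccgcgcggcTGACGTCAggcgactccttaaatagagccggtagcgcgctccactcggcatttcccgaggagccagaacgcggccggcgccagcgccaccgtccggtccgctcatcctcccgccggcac

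Most measured genes of the layer 2/3 list were higher in L2/3 IT_3. Of its 11 measured genes, 9 were higher past the fold and 1 was lower, where 5.51% of all measured genes were higher and 5.71% lower, with a median log2 fold change of 2.79, beside a median of -0.01 over all measured genes. Besides Otof, Calb1, Rasgrf2 and Stard8, they included Lamp5, a lysosome-associated membrane protein of the endocytic pathway, at 788 CPM in L2/3 IT_3, against 115 CPM in other IT cells. Lamp5 had a median of 487 CPM and a highest value of 2310.3 CPM over L2/3 IT_3 libraries, against 10.5 and 1254 CPM in other IT cells, and was higher on 19 of the 20 shared days. Wfs1, a membrane protein of the endoplasmic reticulum, was at 97.2 CPM, against 13.2 CPM in other IT cells, but its log2 fold change turned to -0.11 in intronic counts. Baz1a, a subunit of a chromatin remodeller, was at 36.3 CPM, against 3.03 CPM. The 1 lower gene was Cdh13, a cadherin anchored to the membrane by a lipid, at 3.13 CPM, against 26.4 CPM in other IT cells, with log2 fold changes of 0.32 in the second year and -5.55 in the third year. Otof, Stard8 and Baz1a reached 10 CPM in L2/3 IT_3 only and Cdh13 in other IT cells only, so that limit fixed their sign.

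The upper-layer transcription factors did not move as a group. Of 7 measured genes, Cux1 and Cux2 were higher past the fold and none was lower, and the median was -0.09. Over all measured genes, 5.51% were higher and 5.71% lower. Cux1, the paralog of Cux2, was at 160.1 CPM in L2/3 IT_3, against 38.1 CPM in other IT cells, and was as high in L4/5 IT_1, at 171 CPM. The LIM-only protein gene Lmo4 had a log2 fold change of -0.09 and Mef2c one of 0.06. Of 3 measured layer 4 genes, all 3 were lower past the fold, where 5.71% of all measured genes were lower. They were Rorb (-1.47), the potassium channel gene Kcnh5 (-1.78) and Whrn (-2.58). Whrn reached 10 CPM in other IT cells only, so that limit fixed its sign. Rspo1 and Scnn1a of the same list were below the limit in both groups. Per kilobase of exons, Rspo1 was at 2.60 CPM in L2/3 IT_3 and 2.04 in other IT cells, and Scnn1a at 0.00948 and 0.122. Rorb was at 36.7 CPM in L2/3 IT_3, against 103 CPM in other IT cells, with library values of 0 to 1327 CPM (median 0.289) and 0 to 1545 CPM (median 8.26). It was highest in L4/5 IT_1, at 392 CPM, and some L2/3 IT_3 libraries reached comparable levels.

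Some deep-layer transcription factors were lower past the fold, and all measured members of the deep-layer gene list were lower. Of 10 measured deep-layer transcription factors, 0 were higher and 3 lower past the fold, beside 5.51% and 5.71% over all measured genes. The 3 were Fezf2, Tox and Etv1. Fezf2 and Tox reached 10 CPM in other IT cells only, so that limit fixed their sign. Etv1, an ETS factor of layer 5 neurons, was at 27.5 CPM in L2/3 IT_3, against 102 CPM in other IT cells. Its log2 fold change was -2.75 in the second year and -0.59 in the third year. The other 7 were within the fold, among them the forkhead factor Foxp1, at 137 CPM, against 199 CPM in other IT cells, and the corepressor Tle4, at 31.6 CPM, against 18.7 CPM. All 6 measured genes of the other deep-layer list were lower past the fold, with a median of -3.37, where 5.71% of all measured genes were lower. Each of the 6 reached 10 CPM in other IT cells only, so that limit fixed their sign. Cplx3 of the same list was below the limit in both groups, at 1.75 CPM per kilobase of exons in L2/3 IT_3 and 2.05 in other IT cells. Among the 6 were Crym, a thyroid hormone binding protein (1.82 CPM in L2/3 IT_3, against 28.1 CPM in other IT cells), and Sulf2, a heparan sulfate sulfatase (5.88 CPM, against 69.9 CPM). Neurod6, a bHLH factor of pyramidal cells and one of 6 glutamatergic markers, was also lower, at 58.9 CPM, against 277 CPM in other IT cells, with log2 fold changes of -2.22 in the second year and -2.32 in the third year. The other 5 glutamatergic markers stayed within the fold.

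**Figure D3:**
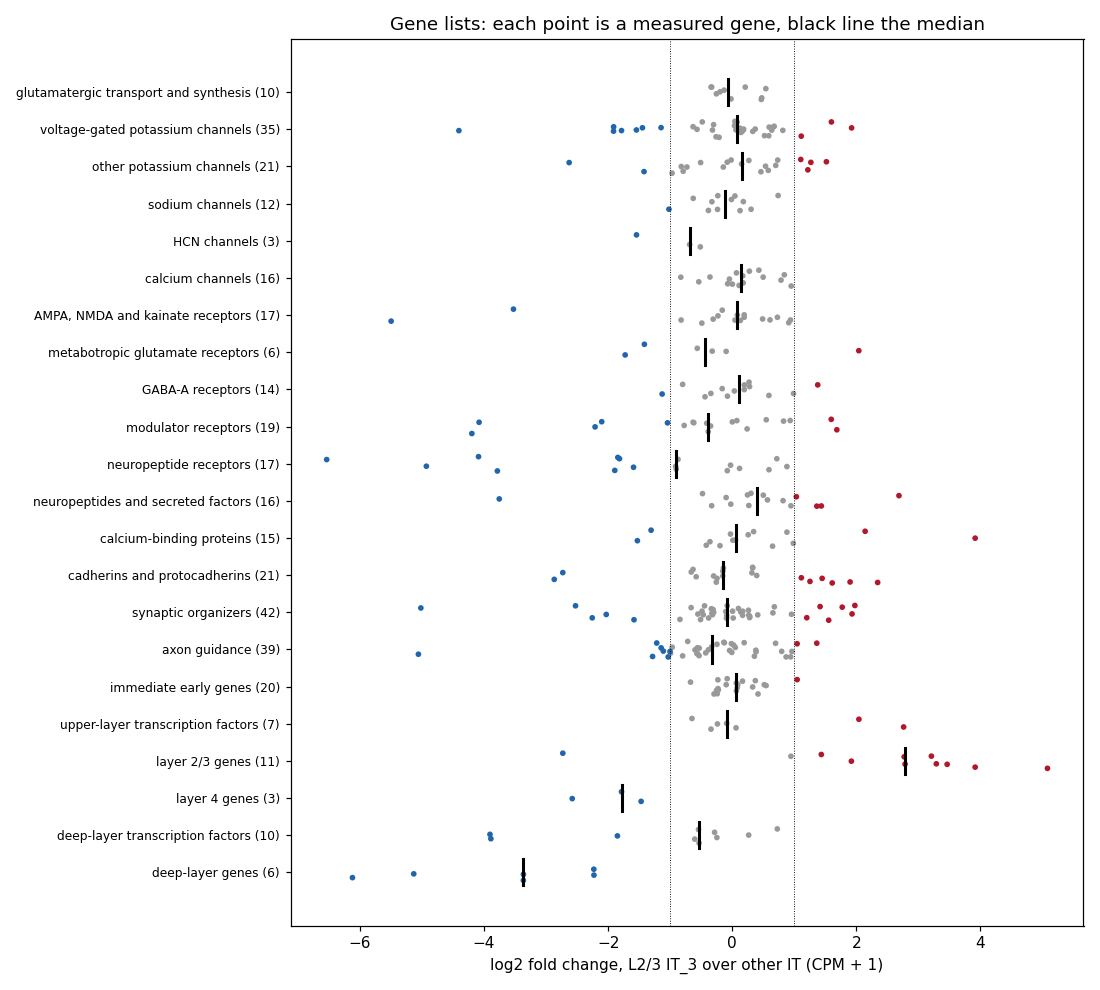
Log2 fold change of L2/3 IT_3 over other IT cells for the measured genes of 22 lists (number measured in brackets). Each point is a gene, red at 1 or more and blue at -1 or less, and the black line is the list's median. The layer 2/3 list stands at a median of 2.79 and the deep-layer gene list at -3.37, while the channel and receptor lists centre between -0.91 and 0.15. All measured genes of the deep-layer gene list reached 10 CPM in other IT cells only, which fixed their sign. In other lists that limit likewise fixed the sign of genes that reached it in a single group. The list labelled GABA-A receptors also holds the GABA-B receptor genes Gabbr1 and Gabbr2.

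Several receptors for peptides were lower in L2/3 IT_3. Of 17 measured neuropeptide receptor genes, 0 were higher, 8 lower and 9 within the fold, where the background is 5.71% lower genes, and their median was -0.91. Of the 8 lower genes, all but Sstr3 reached 10 CPM in other IT cells only, so that limit fixed their sign. Besides Sstr2, the somatostatin receptor genes Sstr3 and Sstr4 were lower, Sstr3 at 13.7 CPM in L2/3 IT_3, against 43.4 CPM in other IT cells, and Sstr4 at 4.21 CPM, against 18.4 CPM. Rxfp1 and Rxfp2 encode receptors of the relaxin and insulin-like peptide family. Rxfp2 was at 0.401 CPM, against 41.7 CPM in other IT cells. Rxfp1 had no read in L2/3 IT_3, against 12.8 CPM, 435-fold lower by the same floor, which is again no lower bound over libraries. The kappa opioid receptor gene Oprk1 had no read either, against 16.02 CPM in other IT cells (545-fold lower by that floor). These reads lay mainly in L6 IT_2 (96.95 CPM) and L5 IT_4 (78.5 CPM). L5 IT_1 held 0.0925 CPM, and the log2 fold change in the second year was -0.03. The member with the most reads per kilobase of exons, the neuropeptide Y receptor gene Npy1r, stood on the other side within the fold, at 213 CPM in L2/3 IT_3, against 115 CPM in other IT cells. The median of the list was -1.06 in the second year and -1.18 in the third year, and the log2 ratio of the summed levels was -0.33.

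Receptors for monoamines and acetylcholine were mixed. Of 19 measured modulator receptor genes, 2 were higher and 5 lower past the fold, beside 5.51% and 5.71% over all measured genes. Their median was -0.39. The lower genes Htr1f, Drd1 and Adra1b reached 10 CPM in other IT cells only, and the higher gene Htr7 in L2/3 IT_3 only, so that limit fixed their sign. The serotonin receptor gene Htr1f was at 0.676 CPM in L2/3 IT_3, against 27.3 CPM in other IT cells, and Htr2a at 15.96 CPM, against 77.5 CPM. Adra1b, an alpha-1 adrenergic receptor, was at 8.87 CPM, against 41.4 CPM, and was lower on 12 of the 20 shared days and higher on 2. The dopamine receptor gene Drd1 had 2 reads in L2/3 IT_3, a ratio of 0.00111 to other IT cells (1.34e-04 to 0.00400, exact 95% interval), and Drd1 was highest in L5 IT_2 (209 CPM) and L6 IT_2 (61.2 CPM). On the higher side stood Chrm3, a muscarinic receptor coupled to Gq, at 132 CPM, against 43.1 CPM in other IT cells, with 28.04% of its L2/3 IT_3 reads from 1 library and a log2 fold change of 0.30 on shared days, against 1.60 on all.

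Sodium and calcium channel genes mostly stayed within the fold, while the voltage-gated potassium channel list held a larger share of lower genes than all measured genes. Of 35 measured voltage-gated potassium channel genes and partners, 3 were higher and 7 lower past the fold, beside 5.51% higher and 5.71% lower over all measured genes, with a median of 0.08. The lower ones included the Kv1 genes Kcna2 (27.3 CPM in L2/3 IT_3, against 76.3 CPM in other IT cells) and Kcna6 (16.4 CPM, against 64.5 CPM) together with their beta subunit Kcnab1, although Kcna2 was at a log2 fold change of 0.02 in intronic counts. Kcnip3, which encodes a calcium-binding partner of Kv4 channels, was at 63.6 CPM, against 187 CPM. Its relative Kcnip2 was higher, at 110.3 CPM, against 50.5 CPM in other IT cells, although its log2 fold change was 0.22 in the third year, -0.23 in intronic counts and -0.65 against L4/5 IT_1. Kcnh4, an Elk-type channel, was at 66.6 CPM, against 16.8 CPM, and was higher on 14 of the 20 shared days. Among other potassium channels, 4 of 21 were higher and 2 lower, and the lower ones included Kcnk2, the mechanosensitive leak channel TREK-1, at 3.73 CPM, against 28.3 CPM.

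Per kilobase of merged exons, the order of the potassium channel partners in L2/3 IT_3 was led by Kcnip4, at 265 CPM per kb in L2/3 IT_3, against 167 in other IT cells, and Kcnv1, a silent subunit, at 76.2, against 48.95 CPM per kb. Of 12 measured sodium channel genes 1 was lower past the fold, the beta subunit gene Scn2b (log2 fold change -1.02, -0.13 without the deepest library of each group and 0.0317 as the mean over cells), and of 3 measured HCN genes 1 was lower, namely Hcn3. None of the 16 measured calcium channel genes was past the fold, where 5.51% of all measured genes were higher and 5.71% lower.

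Ionotropic glutamate receptors stayed mostly within the fold. Of 17 measured AMPA, NMDA and kainate receptor genes and partners, 0 were higher and 2 lower past the fold, beside 5.51% and 5.71% over all measured genes. The lower ones were Cnih3 and the kainate receptor gene Grik3, at 1.56 CPM in L2/3 IT_3, against 28.5 CPM in other IT cells. Per kilobase of exons, the AMPA receptor genes stood in the order Gria2 (95.3 CPM per kb in L2/3 IT_3, against 86.996 in other IT cells), Gria3 (53.2, against 27.7), Gria1 (51.9, against 45.4) and Gria4 (31.2, against 36.6). Gria3 came nearest to the limit of these 4, with a log2 fold change of 0.94 (0.91 in the second year, 0.84 in the third year), and was higher on 16 of the 20 shared days. It held the second place in L2/3 IT_3, whereas Gria1 and Gria4 exceeded it in other IT cells.

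The group II metabotropic receptor genes Grm2 and Grm3, which encode glutamate receptors coupled to Gi, were lower in L2/3 IT_3. Grm2 was at 34.6 CPM in L2/3 IT_3, against 117 CPM in other IT cells, and Grm3 at 55.4 CPM, against 149 CPM. Grm2 was lower on 15 of the 20 shared days and higher on 1. Of 14 measured GABA receptor genes, Gabrg1 was higher (29.2 CPM, against 10.6 CPM). Gabra5, the subunit of many extrasynaptic receptors of pyramidal cells, was lower (35.9 CPM, against 79.7 CPM). The list holds GABA-A receptor genes and the GABA-B receptor genes Gabbr1 and Gabbr2, both within the fold. Over all measured genes, 5.51% were higher and 5.71% lower. Gabrd, the delta subunit of other extrasynaptic receptors, was at 222 CPM, against 111 CPM, a log2 fold change of 0.99 just inside the limit.

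The adhesion molecule lists held genes past the fold in both directions. Of 21 measured cadherins and protocadherins, 6 were higher and 2 lower past the fold, beside 5.51% and 5.71% over all measured genes. Pcdh8 was at 48.3 CPM in L2/3 IT_3, against 8.71 CPM in other IT cells, Cdh22 at 58.5 CPM, against 14.95 CPM, and Cdh12 at 154 CPM, against 70.8 CPM. The log2 fold change of Cdh12 was 1.11, and 0.62 without the deepest library of each group. The lower pair was Cdh9 (4.87 CPM, against 41.9 CPM) and Cdh13. Of 42 measured synaptic organizers, 6 were higher and 5 lower. Lrrtm4, a postsynaptic partner of heparan sulfate proteoglycans, was at 242 CPM, against 90.03 CPM, and was higher on 17 of the 20 shared days. Cbln2, a secreted partner of neurexins, was at 206 CPM, against 53.4 CPM in other IT cells, but was nearly absent from L4/5 IT_2 (0.0177 CPM) and present in L4/5 IT_1 (161 CPM), and its log2 fold change was 1.93 on all days and 0.58 on shared days.

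Flrt3, a ligand of latrophilins, was at 213 CPM in L2/3 IT_3, against 71.8 CPM in other IT cells. The teneurin gene Tenm1 was lower, at 16.9 CPM, against 72.1 CPM in other IT cells. Il1rapl2, a receptor-like adhesion protein, had 1 read in L2/3 IT_3, a ratio of 3.09e-04 to other IT cells (7.81e-06 to 0.00172, exact 95% interval). Of 39 measured axon guidance genes, 2 were higher and 7 lower, beside 5.51% and 5.71% over all measured genes, with a median of -0.33. The ephrin receptor gene Epha3 was at 48.6 CPM in L2/3 IT_3, against 18.3 CPM in other IT cells (log2 fold change 1.36, and 0.72 as the mean over cells), and Epha7 was at 74.3 CPM, against 162 CPM. Nrp1, a receptor for class 3 semaphorins, was at 26.8 CPM, against 63.5 CPM in other IT cells. Nrp1 depended on the reference, since it was near 0 in L4/5 IT_1 and L4/5 IT_2 (0.168 and 0.690 CPM) and at 63.4 CPM in L5 IT_1.

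Among secreted factors, 4 of 16 measured genes were higher and 1, Rspo2, was lower, beside 5.51% and 5.71% over all measured genes. Igfbp4, which binds insulin-like growth factors, was at 148 CPM in L2/3 IT_3, against 22.1 CPM in other IT cells, and was higher on 16 of the 20 shared days. Fgf10 was at 25.4 CPM, against 9.25 CPM. Of 15 measured calcium-binding protein genes, Calb1 and Necab2 were higher, and Necab1 and S100a10 were lower. Necab1 was at 68.1 CPM in L2/3 IT_3, against 170.2 CPM in other IT cells, and Necab2 at 21.7 CPM, against 4.14 CPM, so that these paralogs of neuronal calcium-binding proteins differed in opposite directions. S100a10, the p11 protein that escorts channels and serotonin receptors, was at 15.98 CPM, against 48.01 CPM, and was lower on 15 of the 20 shared days.

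Activity-induced genes stayed mostly within the fold. Of 20 measured immediate early genes, 1 was higher past the fold and 0 lower, beside 5.51% and 5.71% over all measured genes. Their median was 0.07. The higher one was Egr2, a zinc finger factor, at 240.1 CPM in L2/3 IT_3, against 116 CPM in other IT cells, close to the limit at 1.05 and within it in each year (0.87 in the second year, 0.81 in the third year). None of the 10 measured genes of glutamate transport and synthesis was past the fold.

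The single t-types held fewer libraries and gave larger counts of genes past the fold. Against L5 IT_1 (60 libraries), 1186 of 11312 genes (10.5%) were higher in L2/3 IT_3 and 1074 (9.49%) were lower. Against L4/5 IT_2 (30 libraries), 1305 of 11302 (11.5%) were higher and 1147 (10.1%) lower. Against L4/5 IT_1 (22 libraries), 2344 of 11164 (21%) were higher and 1391 (12.5%) lower. Of the L4/5 IT_1 libraries, 4 were recorded in the second year and 18 in the third, against 70 and 13 of L2/3 IT_3. Thinned L4/5 IT_1 libraries had a median of 5358 genes with a read, against 6490.5 in L2/3 IT_3 and 7536 in L4/5 IT_2. The part of year and complexity in these counts was not tested. The comparisons with single t-types share the L2/3 IT_3 libraries, so their values are given side by side. Calb1 had log2 fold changes of 6.44 against L5 IT_1, 6.07 against L4/5 IT_2 and 2.30 against L4/5 IT_1. Otof was past 5 against each, with 5.59, 5.69 and 5.71 in the same order. Cux2 had 3.88, 2.17 and 0.67, and Lamp5 4.09, 2.01 and 0.79, so both were within the fold against L4/5 IT_1.

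Some of the lower genes were lower than in L4/5 IT_1 too, and others were not. Cnih3 had log2 fold changes of -5.04 against L5 IT_1, -6.15 against L4/5 IT_2 and -6.26 against L4/5 IT_1, and Deptor -6.87, -5.33 and -5.34. Fezf2 was at -4.70 and -3.82 against L5 IT_1 and L4/5 IT_2 but at 1.88 against L4/5 IT_1, and Sema3e at -4.84, -3.68 and 0.38. Rorb was at -0.39 against L5 IT_1, -2.36 against L4/5 IT_2 and -3.38 against L4/5 IT_1.

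By the distance between mean profiles, L4/5 IT_1 was the nearest t-type, although it had the most genes past the fold of the 3 single references. Over the mean profiles of 500 variable genes, the correlation distance of L2/3 IT_3 was 0.0651 to L4/5 IT_1, 0.0751 to L4/5 IT_2, 0.0753 to L5 IT_1, 0.103 to L6 IT_2, 0.111 to L6 IT_1 and 0.114 to L5 IT_2. Each L2/3 IT_3 library was also compared with the mean profiles of the t-types with at least 5 libraries, its own library left out. Of 83 libraries, 69 were closest to L2/3 IT_3 and 14 to another t-type, of which 7 were closest to L6 IT_2, 5 to L4/5 IT_1, 1 to L6 IT_1 and 1 to L5 IT_2. The correlation with the own mean was 0.444 to 0.869, with a median of 0.771. As the labels come from the same RNA, this describes how tightly the libraries agree and is no check of the labels.

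Single libraries carried most but not all of the named genes. Thinned to 200000 counts, a library of L2/3 IT_3 had a read of 0 to 12 of the 12 higher genes (median 7), against 0 to 9 (median 1) in other IT cells, and 53 of 78 libraries (67.9%) against 4 of 158 (2.53%) had at least 6. Of the 12 lower genes, L2/3 IT_3 libraries had 0 to 5 (median 0), against 0 to 12 (median 7) in other IT cells, and 0 of 78 against 94 of 158 (59.5%) had at least 6. The genes were chosen on these same cells, so the separation is given as a description only.

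**Figure D4:**
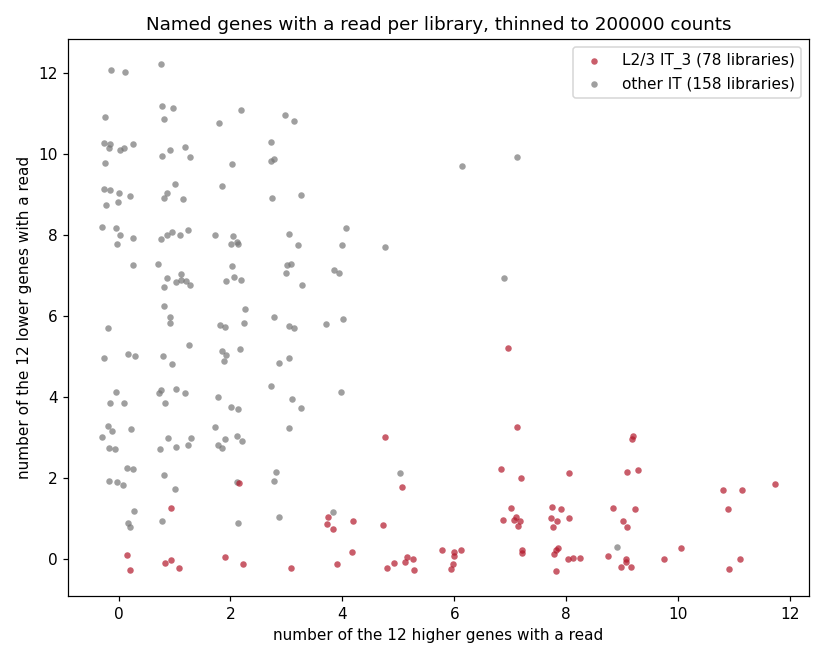
Number of the 12 named higher genes (x axis) and of the 12 named lower genes (y axis) with a read in each library thinned to 200000 exonic counts, for 78 L2/3 IT_3 libraries (red) and 158 other IT libraries (grey), with small random shifts so that points do not cover each other. L2/3 IT_3 libraries lie low, with at most 5 lower genes, and 2 of them have none of the higher genes.

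The genes that varied most among L2/3 IT_3 libraries were not layer genes. By the SD of log2(CPM + 1) over thinned libraries, among genes with at least 50 CPM, they were Gm26917, Xist, Il1a, Cd83, Ctss, Ndrg2, C1qb, Ccl4, Dnaja2 and Dkk3, with SDs of 4.76 to 3.98. Gm26917, a long noncoding RNA gene, was at 15425 CPM in L2/3 IT_3, against 18719 CPM in other IT cells, and spanned 0 to 163385 CPM over L2/3 IT_3 libraries. Xist, the RNA of the inactive X chromosome in female cells, had a read in 32 of 83 libraries, and the mice were of both sexes. C1qb, Ctss, Ccl4, Il1a and Cd83 are known from microglia and other immune cells. C1qb was at 258 CPM in L2/3 IT_3 (0 to 3098, median 82.1), against 186 CPM in other IT cells (median 24.99), and Ctss at 243 CPM, against 167 CPM. C1qb was listed with at least 1 read in 54 of the 83 L2/3 IT_3 libraries. Dkk3, a secreted Wnt modulator that is neuronal, was at 298 CPM in L2/3 IT_3, against 580.5 CPM in other IT cells.

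Library complexity was close between the groups over all years and further apart within each year, since it moved with the year in other IT cells only. Thinned libraries of L2/3 IT_3 had a median of 6490.5 genes with a read (quartiles 5143.75 and 7485.25), against 6779 (5363.5 and 8431.5) in other IT cells. Within the second year the medians were 6489 in L2/3 IT_3 and 7536 in other IT cells, and within the third they were 6514 and 5821, so the order turned between the years. The intronic share of gene counts had a median of 49.03% in L2/3 IT_3 (quartiles 30.1 and 56.7%), against 47.5% (26.002 and 56.3%) in other IT cells. Fewer reads of a gene in a library cannot be told apart from a lower share of cytoplasm drawn into the pipette.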

How the data were processed

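The deposited values are whole-number read counts per gene without normalization, which the authors made in zUMIs: 75-bp single-end reads were split by cell with bcl2fastq (version 2.20), mapped to the mm10 assembly by STAR (version 2.5.4b) and counted per gene of Gencode M23, exonic and intronic reads apart. PCR copies are counted as separate reads, and strand is not marked by Smart-seq2, so overlapping genes cannot be told apart. The exonic table at 25 °C holds 42381 genes and 85 spike-in rows, which took 4.20% of exonic counts in L2/3 IT_3 and 3.77% in other IT cells and were left out. Of its 1329 columns, 9 match no sample and were not used. Groups follow the t-type label of each sample. Pairs of columns with a chi-square per gene under 1.5 were taken as 1 library, which had not been planned. Sums, CPM, exact Poisson and binomial intervals (95%) and thinning to 200000 counts were computed with Python 3.11.15, numpy 2.4.6, pandas 2.3.3, scipy 1.17.1 and matplotlib 3.10.9, and the sums were tested on simulated data. Thinning left out 5 libraries of L2/3 IT_3 and 6 of other IT cells. Doublets were not searched for, since each cell was aspirated through a pipette. Gene positions and exon lengths are from Gencode M21 (GRCm38, the same assembly as mm10) and matched 41080 rows. Promoters are from RefSeq.

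Named genes are the 12 largest fold changes in each direction under the limits given with them, 2 to 6 genes of each list by size of fold change or as the best-known members, Cux2 and Slc17a7, and the 10 genes of largest SD among L2/3 IT_3 libraries. Other genes were named after their values were seen, and some genes of the lists are not reported here. The 29 gene lists hold 509 symbols, of which 505 are in the files. The members and lists were chosen with earlier results of these data known. The alternatives were the mean over cells, thinned libraries, libraries of at least 500000 counts, each year alone, shared days alone, the mean over t-types, median-of-ratios scaling, a pseudocount of 10 CPM, a limit of 1 CPM, the deepest library of each group left out, intronic counts and, added after the data were seen, every column as its own cell, which leaves the summed levels of both groups as they were.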

Additional observations from a re-analysis of the deposited data

Results flagged for a closer look

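The comparison of L2/3 IT_3 with other IT cells went past the fold in opposite directions in the 2 recording years for 2 genes of the lists. Kcnd2, a Kv4 potassium channel gene, had a log2 fold change of 1.61 among libraries of the second recording year and of -1.52 among those of the third. Chrna4, a nicotinic receptor subunit gene, had -2.23 in the second year and 1.48 in the third. The differences between years were not tested, and the reference holds L6 cells in the third year only.

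In the t-types with 4 to 10 libraries, a single library stood far from the others for a marker. Cux2 was at 64.4 CPM in 1 of 7 libraries of L5 IT_2, at 1.02 CPM in 1 of 4 of L5 IT_4, where the others had no read, and at 89.04 CPM in 1 of 10 of L6 IT_1. Slc17a7 was at 1289.7 CPM in 1 of 7 libraries of L5 IT_2. Each was set apart because its gap to the nearest library, divided by the range of its t-type, exceeded the 95% critical value of Dixon, which chance alone passes in about 1 in 20 groups, and where the other libraries are at 0 a lone read suffices.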

How the results depend on the processing

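The labels give no replicate numbers, so no replicate block was fitted, and the groups were set beside each other within the 20 shared recording days instead. The count of genes past the fold against other IT cells (614 higher, 636 lower) stayed within 1.5 times under the mean over cells, thinned libraries, deep libraries, the second year alone, the mean over t-types, median-of-ratios scaling, the deepest libraries left out and intronic counts, and counting all columns as cells leaves the sums unchanged by construction. As shares of the 8613 genes measured in intronic counts, the 749 higher (8.70%) and 948 lower genes (11.01%) moved further from 5.51% and 5.71%. The sets were less stable than the counts, since the intronic counts shared 138 of the 614 higher and 185 of the 636 lower genes, the second year alone shared 358 and 410, and thinned libraries shared 411 and 436. In the third year alone, with 13 L2/3 IT_3 libraries, the counts were 1569 higher and 2077 lower against other IT cells, 3183 and 2533 against L5 IT_1, and 2825 and 2470 against L4/5 IT_2, with 2306 lower against L4/5 IT_1. On shared days they were 1679 and 1403, 3228 and 2335, and 2621 and 2385 in the same order, with 3090 lower against L4/5 IT_1. In the second year alone, L4/5 IT_1 held 4 libraries, and 4752 genes were higher and 2153 lower than in it. With a pseudocount of 10 CPM the counts were 242 and 270, 539 and 449, 642 and 554, and 1548 and 866 against other IT cells, L5 IT_1, L4/5 IT_2 and L4/5 IT_1, and with a limit of 1 CPM they were 1589 and 1830, 2502 and 2708, 3111 and 2421, and 5420 and 2186. A looser limit gives larger counts by construction. The third year and the shared days, with fewer libraries, also had larger counts, and the part of library number in this was not tested.

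Of 84 named genes with a log2 fold change of at least 1 in size, 24 had been chosen by the size of that change and the same sign in both years, which fixed their sign in each year alone, and none of these turned elsewhere, with Sstr2 at 0 in intronic counts. Of the other 60, 52 did not turn under any alternative, of which the pseudocount, the limit of 1 CPM and all columns as cells cannot turn a sign. The 8 that turned were Kcna2 (0.0201), Kcnip2 (-0.23), Wfs1 (-0.11), Gad2 (0.13), Gja1 (-0.14) and Chrna4 (0.37) in intronic counts, Chrna4 (1.48) in the third year alone, Cdh13 (0.32), Gad2 (0.13) and Gja1 (-0.0522) in the second year alone, and Scn2b (0.0317) as the mean over cells. The cause was not tested. Past the fold in their direction were 84 of the 84 in deep libraries, 74 in the second year alone, 73 in the third year alone, 77 on shared days, 82 without the deepest libraries and 52 in intronic counts. Depth limits the number of genes with a read, and all counts in place of thinned ones gave 7471 genes per L2/3 IT_3 library and 8094.5 per other IT library.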

Other observations

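The only other cell with a layer 2/3 IT label, L2/3 IT_2, had 348196 exonic counts. Its profile over 500 variable genes correlated at r = 0.843 with the mean of L2/3 IT_3, which was the nearest of the t-types compared. It held 144 CPM of Cux2, 474 CPM of Calb1, 333 CPM of Lamp5 and 144 CPM of Rasgrf2, but only 2.87 CPM of Otof, and 132 CPM of Cdh13, against 3.13 CPM in L2/3 IT_3. Thinned to 200000 counts it had a read of 9 of the 12 higher genes and of 0 of the 12 lower genes. A single cell gives no estimate of its type.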
